A study of Homo sapiens with 4 samples.

Results

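The 9 genes described here, VIM, CDH2, FN1, ZEB1, SNAI2, COL1A1, TAGLN, TGFBI and CD44, are mesenchymal, matrix and contractile genes read by name from a count table of 57014 named rows. All 9 were found in the table, each on a single row. They were followed in 22Rv1, an established human prostate cancer cell line of epithelial type, grown in RPMI-1640 with fetal bovine serum. CD276 knockout libraries, named sgCD276, numbered 2 (replicates 1 and 3), and control libraries, labelled wild type and named sgGFP, numbered 2 (replicates 1 and 3). CD276 encodes the immune checkpoint molecule B7-H3, and the comparison asks how transcription in this line differs once it is knocked out. Whether the knockout cells were 1 clone or a pool is not given in the labels. The replicates are described as biological without mention of separate cultures, and p-values cover only variation among these libraries.

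Epithelial cells are held together by E-cadherin junctions and carry a keratin cytoskeleton, while mesenchymal cells carry vimentin, use N-cadherin, and secrete and bind a fibrillar matrix. In the transition from epithelial to mesenchymal state, transcription factors of the SNAI, ZEB and TWIST families repress CDH1, the E-cadherin gene, and the matrix and cytoskeletal genes rise. In prostate cancer this programme is studied in connection with invasion and with loss of luminal identity.

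CD44, COL1A1 and TAGLN fell in the CD276 knockout libraries, by 2.46-fold, 2.00-fold and 1.94-fold. VIM, CDH2, FN1 and SNAI2 were expressed and did not pass the test in either direction. ZEB1 and TGFBI were hardly expressed, with 0 to 7 counts in any library. In bulk RNA, fewer cells that express a gene and less RNA per cell cannot be told apart. Levels are CPM, a gene's counts relative to the scaled library total, as mean ± SD over n = 2 libraries per group. Fold changes are log2 of knockout over control, with their SE. The words rose, fell and called stand for an adjusted p under 0.05 (edgeR quasi-likelihood test, Benjamini-Hochberg over 18043 genes). Across all these genes 12.9% were called lower and 9.87% higher, and the 3 falls and 0 rises, among the 7 members that passed the filter on low counts, are read beside those shares. The remaining 2 of the 9 were not tested. With unadjusted p under 0.05, edgeR likewise gave 0 members higher, and DESeq2 called 0 higher and 3 lower.

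The libraries held 20079050 to 25802417 counts, so that 1 CPM stood for 19.4 to 26.3 counts. CD276 itself was at 23.7 and 26.3 CPM in knockout replicates 1 and 3, against 47.4 and 54.4 CPM in control replicates 1 and 3, which is -1.03 ± 0.16 on the log2 scale (edgeR adjusted p = 0.00561). That reduction missed the threshold without control replicate 3 (edgeR adjusted p = 0.0812). Transcripts of the mitochondrial genome took 1.46% and 1.78% of counts in the knockouts, against 5.84% and 6.15% in the controls. Controls resembled each other (Pearson r = 0.990 over the log2 CPM of genes, and genes are no independent replicates) more than knockouts did (r = 0.980). The part of these library differences in the results below was not tested.

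The labelled cell type was checked against marker genes. Of the luminal epithelial markers, the keratin KRT8 averaged 886 ± 317 CPM in the knockouts and 1197 ± 70.7 CPM in the controls, and KRT18, EPCAM and CDH1 were likewise above 1 CPM in both groups. All 7 leukocyte markers were under 1 CPM in both groups, with CD3E at 0 counts in every library, and summed to 0.533 and 0.889 CPM in the knockouts and 1.48 and 1.39 CPM in the controls. Of 6 endothelial markers 5 were under 1 CPM, PECAM1 and CDH5 were at 0, and the sum was 0.838 and 0.271 CPM in the knockouts and 1.48 and 0.981 CPM in the controls. Of 10 fibroblast markers 6 were under 1 CPM, among them PDGFRA, PDGFRB, FAP, THY1 and POSTN. The fibroblast list, which holds COL1A1, summed to 34.8 and 48.1 CPM in the knockouts and 60.7 and 54.4 CPM in the controls. The part of other cell types in the results was not tested.

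**Figure D1:**
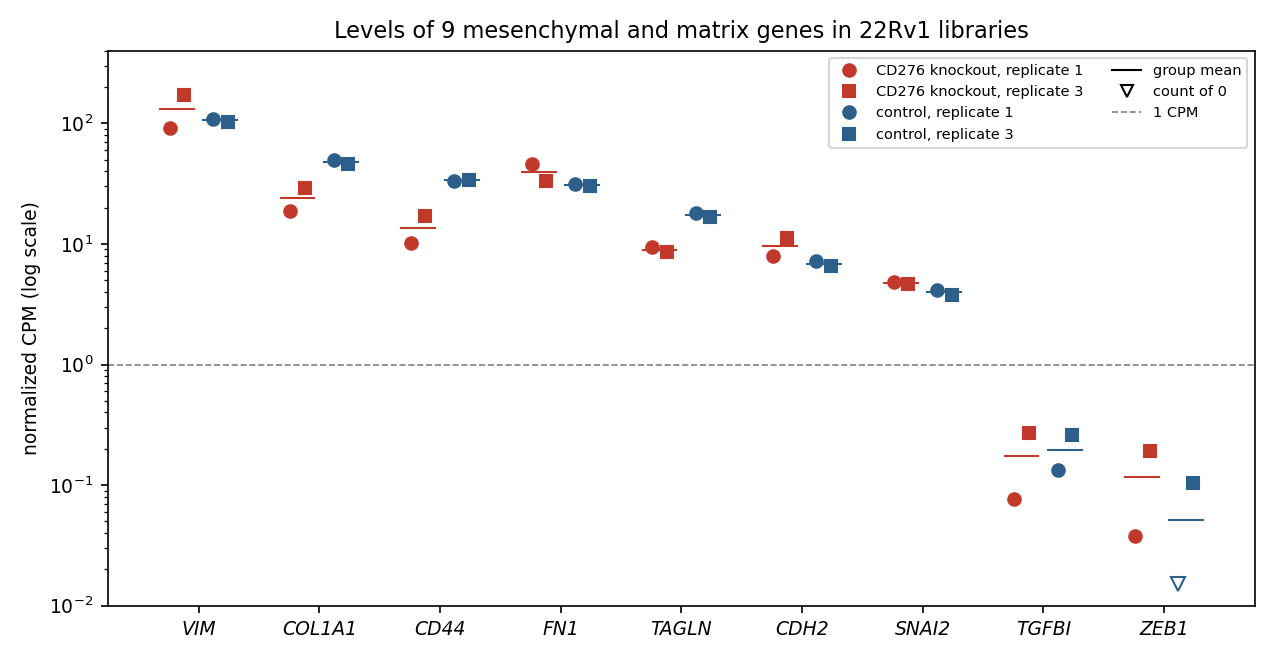
Normalized CPM (log scale) of the 9 genes in each of the 4 libraries, knockouts in red left of controls in blue, with group means as lines and an open triangle for a count of 0. COL1A1, CD44 and TAGLN lie lower in both knockouts than in both controls, and CDH2, FN1 and SNAI2 lie higher. Groups did not overlap for 65.9% of all genes tested. TGFBI and ZEB1 lie below 0.3 CPM everywhere.

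Start regions are shown for a member that fell and for a pair that was expressed and not called. Each is the 250 bases before the RefSeq gene start on GRCh38.p14, 5′ to 3′ on the gene's strand. CD44, with the largest fall of the 9 genes in edgeR, is at chr11:35138921-35139170 (plus strand). VIM, at chr10:17227991-17228240 (plus strand), and FN1, at chr2:215436069-215436318 (minus strand), were not called. Capitals mark 3 motifs searched on both strands: CACCTG, the E-box that SNAI and ZEB proteins recognise; GGGCGG, the GC box of SP-family factors; and CCAAT.
CD44: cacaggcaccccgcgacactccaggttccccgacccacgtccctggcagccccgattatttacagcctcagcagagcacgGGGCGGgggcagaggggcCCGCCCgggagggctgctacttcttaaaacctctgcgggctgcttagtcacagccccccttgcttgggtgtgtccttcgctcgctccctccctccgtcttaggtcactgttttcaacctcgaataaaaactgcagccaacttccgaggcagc
VIM: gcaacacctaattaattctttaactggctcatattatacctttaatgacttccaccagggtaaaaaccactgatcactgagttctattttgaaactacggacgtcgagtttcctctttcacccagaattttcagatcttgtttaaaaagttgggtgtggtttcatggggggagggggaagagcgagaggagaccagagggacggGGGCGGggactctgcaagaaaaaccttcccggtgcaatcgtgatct
FN1: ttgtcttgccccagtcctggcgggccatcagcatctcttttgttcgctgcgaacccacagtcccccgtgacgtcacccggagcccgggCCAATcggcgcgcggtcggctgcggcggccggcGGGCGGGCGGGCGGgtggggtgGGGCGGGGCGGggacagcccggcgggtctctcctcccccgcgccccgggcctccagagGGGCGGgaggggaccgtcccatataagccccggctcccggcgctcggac

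The CD44 window held 2 GC boxes, the VIM window 1 and the FN1 window 6, some of which overlap. The FN1 window also held 1 CCAAT box. The E-box letters CACCTG occurred in none of the 3 windows (0 matches each). Among 35116 windows of the same length in the RefSeq table, 42.6% held a GC box, 32.0% a CCAAT box and 17.5% this E-box. G and C made up 62.4% of the CD44 window, 46.0% of the VIM window and 76.4% of the FN1 window.

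Among the surface and matrix receptors, CD44 (chromosome 11, 35138870 to 35232402, plus strand, GRCh38) encodes the transmembrane receptor for hyaluronan and is also used as a marker of basal prostate cells. It had 267 and 444 counts in knockout replicates 1 and 3, against 743 and 659 in control replicates 1 and 3. In CPM these were 10.2 and 17.2 in the knockouts and 33.3 and 34.0 in the controls. Both knockouts lay below both controls, and knockout replicate 1 was the lower of the knockouts. The log2 fold change was -1.30 ± 0.24 (edgeR adjusted p = 0.00926), 2.46-fold lower. CD44 stayed below the threshold in each alternative fit that kept all 4 libraries. Its log2 fold change ranged from -1.66 to -0.96 over all 15 alternative fits. Fits with 1 library left out hold 1 library in a group, so their p-values do not cover the spread within that group. CD44 transcripts are spliced into many variants, and counts per gene do not separate them.

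The antisense gene CD44-AS1, whose exons overlap 0.84% of the exonic bases of CD44, had 1 and 0 counts in the knockouts and 6 and 8 in the controls. It was too low to be tested. Whether counting used strand is not stated in the sources used here, so reads of such pairs cannot be told apart where exons overlap. For CD44 that overlap is under 1% of its exonic bases.

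The hyaluronan and proteoglycan list, CD44 included, held genes called in both directions. Of 18 genes tested from this list of 20, 5 (27.78%) were called higher and 2 (11.11%) lower, beside 9.87% and 12.9% over all genes tested. The median log2 fold change was 0.29 beside -0.00451 over all genes tested. CD44 and AGRN, a basement membrane proteoglycan, fell. AGRN averaged 123 ± 8.27 CPM in the knockouts and 190 ± 5.44 CPM in the controls (-0.63 ± 0.14, edgeR adjusted p = 0.0152). HMMR, an intracellular hyaluronan-binding protein of the mitotic spindle, rose to 91.3 ± 0.851 CPM in the knockouts, against 57.3 ± 4.15 CPM in the controls (0.67 ± 0.13). The syndecan SDC2, a heparan sulfate proteoglycan of the cell surface, rose to 24.2 ± 0.748 CPM, against 13.9 ± 0.713 CPM in the controls (0.80 ± 0.17). The remaining 3 that rose, LUM, SDC1 and SDC4, were chosen after their values were seen, with log2 fold changes of 0.84, 0.61 and 0.65. The hyaluronan synthases HAS1, HAS2 and HAS3 had group means of at most 3.60 CPM, and none of the 2 tested was called (0 higher and 0 lower). HAS1, HAS2 and HAS3 were chosen after their values were seen.

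Among the matrix proteins, COL1A1 (chromosome 17, 50183289 to 50201632, minus strand) encodes the α1 chain of type I collagen, the main fibrillar collagen of connective tissue and bone. It shares no annotated exon with another gene. Counts were 496 and 754 in knockout replicates 1 and 3, against 1116 and 894 in control replicates 1 and 3, or 18.9 and 29.2 CPM against 49.98 and 46.2 CPM. Both knockouts lay below both controls. The log2 fold change was -1.0 ± 0.21 (edgeR adjusted p = 0.0139), a 2.00-fold lower level. The fall kept its direction in all 15 alternative fits but missed the threshold without control replicate 1 (-0.94, edgeR adjusted p = 0.130) and without control replicate 3 (-1.06, edgeR adjusted p = 0.0662).

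The α2 chain of type I collagen is encoded by COL1A2, which was chosen after its values were seen and was far lower than COL1A1 per length of exon. COL1A2 was at 0.419 and 2.17 CPM in the knockouts and 0.761 and 0.929 CPM in the controls. Per kb of exon its mean level was 0.116 CPM in the knockouts and 0.0758 CPM in the controls, while COL1A1 stood at 2.45 and 4.90 CPM per kb in the same order. The groups of COL1A2 overlapped, and its log2 fold change of 0.61 ± 0.70 was not called (edgeR adjusted p = 0.559). The fibroblast list other than COL1A1 summed to 15.96 and 18.9 CPM in the knockouts and 10.7 and 8.26 CPM in the controls, so the remaining fibroblast markers together were higher in the knockouts while COL1A1 was lower. Most of that sum was LUM, the matrix proteoglycan lumican, at 13.9 ± 0.0700 CPM in the knockouts and 7.72 ± 1.57 CPM in the controls.

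Of 16 collagen genes tested from a list of 21, 3 (18.75%) were called lower, COL1A1 among them, and 0 higher. Over all genes tested 12.9% were called lower and 9.87% higher. The list median was -0.24 on the log2 scale. At unadjusted p under 0.05, edgeR gave 0 collagens higher, and DESeq2 called 0 higher. COL4A5, a chain of basement membrane collagen IV, averaged 15.3 ± 3.15 CPM in the knockouts and 43.4 ± 2.599 CPM in the controls (-1.50 ± 0.19, edgeR adjusted p = 0.00342). COL5A2, a chain of the fibril-initiating collagen V, averaged 25.1 ± 3.75 CPM in the knockouts and 45.2 ± 1.67 CPM in the controls (-0.85 ± 0.16, edgeR adjusted p = 0.0108). COL9A3, the collagen gene with the highest mean CPM, was at 64.8 ± 9.07 and 84.2 ± 6.999 CPM in knockouts and controls and was not called (edgeR adjusted p = 0.102). Summed over the list, collagens took 157 and 180 CPM in the knockouts and 269 and 263 CPM in the controls.

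FN1 (chromosome 2, 215360440 to 215436172, minus strand) encodes fibronectin, the glycoprotein that links cells to the matrix through integrins. It had 1217 and 856 counts in knockout replicates 1 and 3, against 698 and 589 in control replicates 1 and 3. In CPM these were 46.4 and 33.1 in the knockouts and 31.3 and 30.4 in the controls. Both knockouts lay above both controls, but knockout replicate 3 exceeded the controls by less than it differed from knockout replicate 1. Non-overlapping groups were common, at 65.9% of all genes tested. The log2 fold change was 0.37 ± 0.19 (95% interval -0.06 to 0.79) and was not called (edgeR adjusted p = 0.185). Without knockout replicate 3 it was 0.66, and without knockout replicate 1 it was 0.11.

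TGFBI (chromosome 5, 136028895 to 136063818, plus strand), a secreted matrix protein induced by TGF-beta that binds collagens, was hardly expressed. It had 2 and 7 counts in the knockouts and 3 and 5 in the controls, or 0.0762 and 0.271 CPM against 0.134 and 0.258 CPM. The groups overlapped, and TGFBI did not pass the filter on low counts, so no fold change is given.

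Some matrix glycoproteins fell and another rose. Of 23 tested from a list of 30, 2 (8.696%) were called lower and 1 (4.348%) higher, beside 12.9% and 9.87% over all genes tested. The median was -0.04 on the log2 scale. The laminin chains LAMA5 and LAMB2, of basement membranes, both fell. LAMA5 averaged 110 ± 2.96 CPM in the knockouts and 215 ± 0.488 CPM in the controls (-0.97 ± 0.13, edgeR adjusted p = 0.00406), and LAMB2 averaged 116 ± 19.6 and 210 ± 18.7 CPM in the same order (-0.86 ± 0.16, edgeR adjusted p = 0.0102). NID1, nidogen, which joins laminin to collagen IV, rose to 6.87 ± 0.181 CPM in the knockouts, against 3.20 ± 0.221 CPM in the controls (1.10 ± 0.25, edgeR adjusted p = 0.0169). LAMC1, another laminin chain and the list gene with the highest mean CPM, was not called, at 180.5 ± 34.1 CPM in the knockouts and 146 ± 14.04 CPM in the controls.

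Enzymes and inhibitors that modify the matrix changed in both directions. From a list of 28, 24 were tested, 5 (20.83%) rose and 1 (4.167%) fell, beside 9.87% and 12.9% over all genes tested. The median was 0.38 on the log2 scale. P4HA1, a catalytic subunit of the prolyl hydroxylase that stabilises the collagen helix, rose to 97.8 ± 32.2 CPM in the knockouts, against 42.7 ± 0.191 CPM in the controls (1.20 ± 0.21, edgeR adjusted p = 0.00838). Its knockout libraries were at 74.98 and 121 CPM, so the size of the rise differed between them. PLOD2, a lysyl hydroxylase of collagen, rose to 75.8 ± 8.86 CPM, against 49.99 ± 0.713 CPM in the controls (0.60 ± 0.14), and the sheddase ADAM17 to 21.1 ± 3.77 CPM, against 12.5 ± 1.59 CPM (0.76 ± 0.20). Opposite-strand genes cover 13.6% of ADAM17 exons. ADAM10, also a sheddase, and TIMP3, a metalloproteinase inhibitor, were the others that rose, and PLAUR, the urokinase receptor, fell, with log2 fold changes of 0.52, 3.04 and -0.85. These 3 were chosen after their values were seen, and TIMP3 was under 1 CPM in both groups. P4HB, the list gene with the highest mean CPM, was at 827 ± 8.40 CPM in the knockouts and 832 ± 17.3 CPM in the controls.

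**Figure D2:**
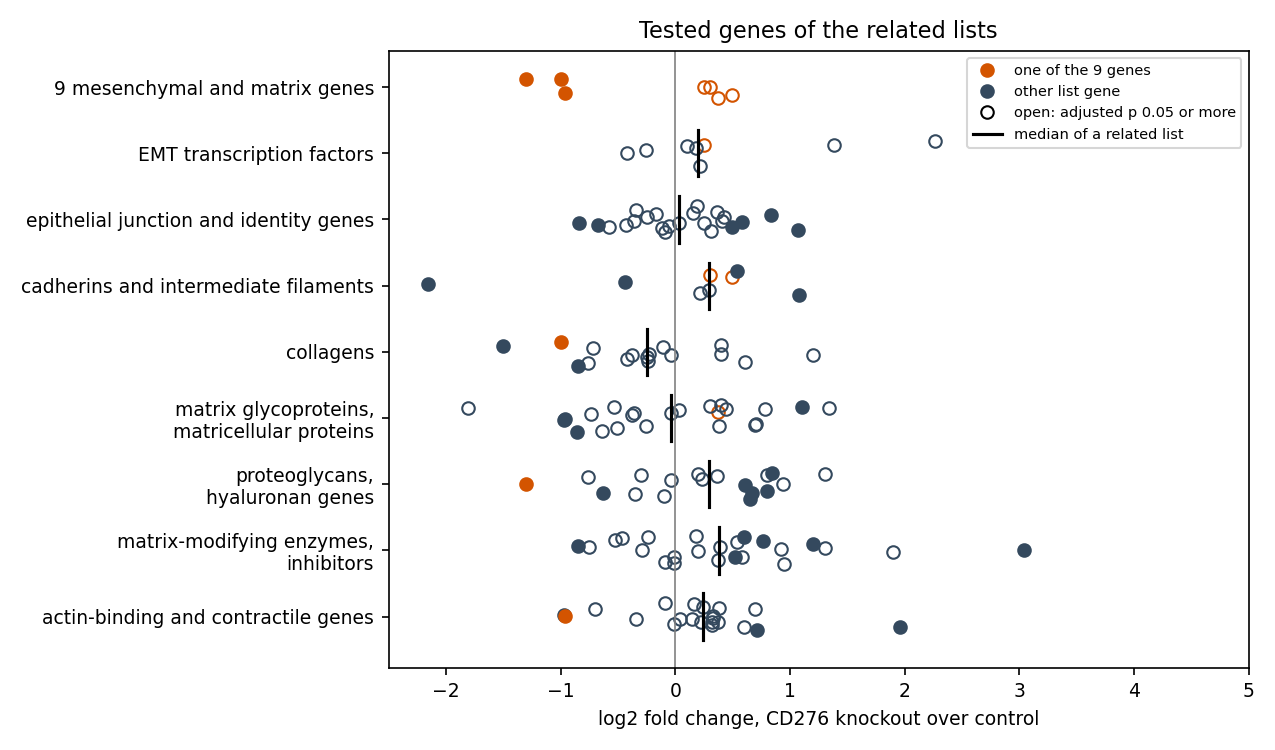
Log2 fold changes (knockout over control) of the tested genes of the 9-gene group and of 8 related lists, 1 point a gene, filled where the adjusted p was under 0.05, with the median of each related list as a vertical line. The 3 called collagens, COL1A1 among them, lie left of 0, and 5 of the 6 called matrix-modifying genes lie right of it. Over all genes tested 12.9% were called lower and 9.87% higher.

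Among the cytoskeletal members, TAGLN (chromosome 11, 117199321 to 117204782, plus strand) encodes transgelin, an actin-binding protein of smooth muscle and myofibroblasts. It had 246 and 220 counts in knockout replicates 1 and 3, against 404 and 321 in control replicates 1 and 3, or 9.37 and 8.504 CPM against 18.1 and 16.6 CPM. Both knockouts lay below both controls and close to each other. On the log2 scale TAGLN fell, at -0.96 ± 0.18 (edgeR adjusted p = 0.0106), 1.94-fold lower. It missed the threshold without control replicate 1 (-0.89, edgeR adjusted p = 0.197) and without control replicate 3 (-1.02, edgeR adjusted p = 0.102). PCSK7, on the opposite strand, overlaps 11.4% of the exonic bases of TAGLN, so part of the TAGLN counts may belong to it.

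The paralog TAGLN2, the actin-binding list gene with the highest mean CPM, was at 733 and 979 CPM in the knockouts and 906 and 920 CPM in the controls. Its groups overlapped and it was not called (-0.09 ± 0.19, edgeR adjusted p = 0.762). Of 21 actin-binding and contractile genes tested from a list of 26, TAGLN was the 1 (4.762%) called lower and 2 (9.524%) rose. These shares were 12.9% and 9.87% over all genes tested. TPM1, a tropomyosin, rose to 67.4 ± 6.63 CPM in the knockouts, against 41.1 ± 0.0779 CPM in the controls (0.71 ± 0.14, edgeR adjusted p = 0.0118), and shares 21.4% of its exonic bases with opposite-strand genes. SYNPO2, synaptopodin 2, rose on low counts, at 47 and 37 in the knockouts and 8 and 9 in the controls (1.96 ± 0.48, edgeR adjusted p = 0.0225). The list median was 0.24. MYOCD, the coactivator that defines smooth muscle, had 0 counts in every library; it was picked with its values known.

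VIM (chromosome 10, 17228259 to 17237593, plus strand) encodes vimentin, the intermediate filament of mesenchymal cells. It had 2394 and 4423 counts in knockout replicates 1 and 3, against 2431 and 2001 in control replicates 1 and 3. In CPM these were 91.2 and 171 in the knockouts and 109 and 103 in the controls. Knockout replicate 1 lay below both controls and knockout replicate 3 above both, so the groups overlapped. The log2 fold change was 0.30 ± 0.25 (95% interval -0.27 to 0.88) and was not called (edgeR adjusted p = 0.410). The sign depended on which knockout was used: without knockout replicate 1 it was 0.70, and without knockout replicate 3 it was -0.15.

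Exons of VIM-AS1 and of another opposite-strand gene cover 24.4% of the exonic bases of VIM. VIM-AS1 was at 6.25 and 7.65 CPM in the knockouts and 6.09 and 4.91 CPM in the controls, far below VIM, and was not called (0.34 ± 0.24, edgeR adjusted p = 0.345). NES, nestin, another intermediate filament gene and chosen after its values were seen, averaged 56.2 ± 2.06 CPM in the knockouts and 76.3 ± 2.88 CPM in the controls (-0.44 ± 0.13, edgeR adjusted p = 0.0444).

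CDH2 (chromosome 18, 27950966 to 28177446, minus strand; 2.75% of exonic bases shared with an opposite-strand gene) encodes N-cadherin, the adhesion molecule that replaces E-cadherin in mesenchymal cells. It had 209 and 292 counts in knockout replicates 1 and 3, against 160 and 127 in control replicates 1 and 3, or 7.96 and 11.3 CPM against 7.17 and 6.56 CPM. Both knockouts lay above both controls, with knockout replicate 1 closer to them. The log2 fold change was 0.49 ± 0.24 (95% interval -0.06 to 1.03) and was not called (edgeR adjusted p = 0.169). Without knockout replicate 1 it was 0.73, and without knockout replicate 3 it was 0.28.

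CDH1, the E-cadherin gene, rose to 292 ± 28.4 CPM in the knockouts, against 208 ± 6.46 CPM in the controls (0.49 ± 0.15, edgeR adjusted p = 0.0439). Per kb of exon CDH1 averaged 47.3 CPM in the knockouts and 33.7 CPM in the controls, while CDH2 averaged 1.94 and 1.39 CPM in the same order. Of 8 cadherin, catenin and intermediate filament genes tested from a list of 9, 2 (25%) rose and 2 (25%) fell, with a median of 0.30. The shares over all genes tested were 9.87% higher and 12.9% lower. CDH6, K-cadherin, rose to 27.9 ± 4.53 CPM in the knockouts, against 13.2 ± 1.29 CPM in the controls (1.08 ± 0.19, edgeR adjusted p = 0.00768). CTNNB1, β-catenin, rose to 361 ± 39.6 CPM, against 249 ± 8.34 CPM in the controls (0.54 ± 0.15, edgeR adjusted p = 0.0374). CDH4 fell on low counts of 5 and 7 in the knockouts and 27 and 17 in the controls (-2.16 ± 0.56, edgeR adjusted p = 0.0277), and NES was the other to fall. DESeq2 called 2 of these genes higher and 0 lower.

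Among the transcription factors, SNAI2 (chromosome 8, 48917604 to 48921740, minus strand), which encodes SLUG, a zinc finger repressor of CDH1, was expressed at a low level. It had 126 and 120 counts in the knockouts and 93 and 73 in the controls, or 4.80 and 4.64 CPM against 4.17 and 3.77 CPM. Both knockouts lay above both controls, by a small margin. Its log2 fold change was 0.25 ± 0.26 (95% interval -0.33 to 0.83), was not called (edgeR adjusted p = 0.509), and was called in none of the 15 alternative fits (0), with adjusted p from 0.286 to 0.869.

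ZEB1 (chromosome 10, 31318495 to 31529814, plus strand), a zinc finger homeobox repressor of CDH1, was hardly expressed. It had 1 and 5 counts in the knockouts and 0 and 2 in the controls. In CPM these were 0.0381 and 0.193 in the knockouts, and the control replicate with 2 counts was at 0.103. The 0 in control replicate 1 allows a level of up to 0.134 CPM, at 3 counts, for counting error only. ZEB1 did not pass the filter on low counts and was not tested. Its divergent antisense neighbour ZEB1-AS1 was expressed, at 10.7 and 12.6 CPM in the knockouts and 8.69 and 7.69 CPM in the controls, with a log2 fold change of 0.51 ± 0.21 that was not called (edgeR adjusted p = 0.104). Exons of ZEB1-AS1 overlap 4.23% of the exonic bases of ZEB1.

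Of 13 transcription factors of this transition 8 were tested and 0 were called in either direction, with DESeq2 also calling 0. In edgeR 9.87% of all genes tested were called higher and 12.9% lower. At unadjusted p under 0.05 in edgeR 1 was higher, PRRX1, and 0 lower. PRRX1 was under 1 CPM in both groups (2.26 ± 0.72, edgeR adjusted p = 0.0530). SNAI1 was at 0.647 and 3.71 CPM in the knockouts and 1.03 and 0.62 CPM in the controls (1.38 ± 0.74, edgeR adjusted p = 0.2005). TCF4 lay lower in the knockouts (-0.42 ± 0.19, edgeR adjusted p = 0.1295). PRRX1, SNAI1 and TCF4 were chosen after their values were seen. The list median was 0.19. TCF3, an E-protein that also binds E-boxes and the factor with the highest mean CPM, was at 143 ± 1.56 CPM in the knockouts and 126 ± 1.06 CPM in the controls (0.18 ± 0.13, edgeR adjusted p = 0.337). TWIST1, picked with its values known, was at 24.5 and 36.0 CPM in the knockouts and 33.9 and 38.4 CPM in the controls (-0.26 ± 0.20, edgeR adjusted p = 0.384). Both were well above SNAI2 per kb of exon, with TWIST1 at 14.9 and 17.8 CPM per kb in knockouts and controls and SNAI2 at 1.39 and 1.17 CPM per kb.

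**Figure D3:**
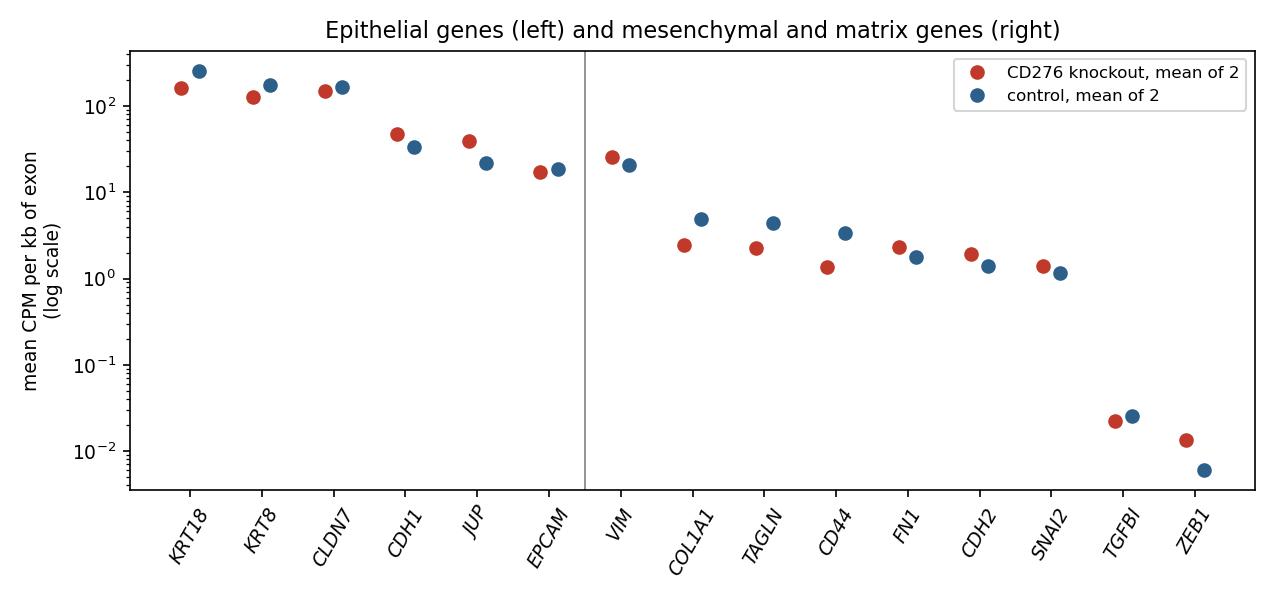
Mean CPM per kb of annotated exon (log scale, n = 2 libraries per group) for 6 epithelial genes on the left and the 9 mesenchymal and matrix genes on the right, knockout in red left of control in blue. VIM, at 25.4 in knockouts (17.7 and 33.2 in replicates 1 and 3) and 20.6 in controls, lies near EPCAM, at 17.3 and 18.4. EPCAM is the lowest of the 6 epithelial genes, which were picked by no set rule from a list of 24. TGFBI and ZEB1 lie below 0.03.

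Levels of different genes were compared per kb of exon, over all annotated exons of a gene. In the controls the order was VIM, COL1A1, TAGLN, CD44, FN1, CDH2, SNAI2, TGFBI and ZEB1, with means from 20.6 down to 0.00597 CPM per kb. Neighbours in that order did not overlap between the control libraries down to TGFBI. The closest of these were COL1A1, at 5.09 and 4.70 CPM per kb, and TAGLN, at 4.62 and 4.23 CPM per kb. Spread between libraries does not cover the choice of length, as a transcript may hold only part of a gene's annotated exons. Which transcripts were present was not measured, so the order holds for this length only. In the knockouts VIM was again highest, at 17.7 and 33.2 CPM per kb, but COL1A1, FN1, TAGLN and CDH2 overlapped each other, between 1.61 and 2.97 CPM per kb. CD44 overlapped CDH2 and SNAI2 there, at 1.02 and 1.72 CPM per kb. Both TGFBI and ZEB1 stayed below 0.04 CPM per kb in every library, and with single-digit counts their order is not resolved.

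Epithelial junction and identity genes moved in both directions. From a list of 24, 23 were tested, 4 (17.39%) rose and 2 (8.696%) fell, beside 9.87% and 12.9% over all genes tested. The median was 0.03 on the log2 scale. JUP, plakoglobin, a linker of desmosomes and adherens junctions, rose to 195 ± 16.4 CPM in the knockouts, against 109 ± 0.0649 CPM in the controls (0.83 ± 0.14, edgeR adjusted p = 0.00687). OCLN, occludin of tight junctions, rose to 9.33 ± 2.32 CPM, against 4.45 ± 0.786 CPM in the controls (1.07 ± 0.27). DSP, desmoplakin, chosen after its values were seen, was the other junction gene to rise beside CDH1, by 0.58 ± 0.17 on the log2 scale. The epithelial transcription factor ELF3 fell to 101 ± 35.2 CPM, against 180 ± 8.69 CPM in the controls (-0.84 ± 0.22), and the keratin KRT18 to 516 ± 110 CPM, against 827 ± 37.2 CPM (-0.68 ± 0.19). KRT18 shares 16.3% of its exonic bases with an opposite-strand annotation of KRT8.

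**Figure D4:**
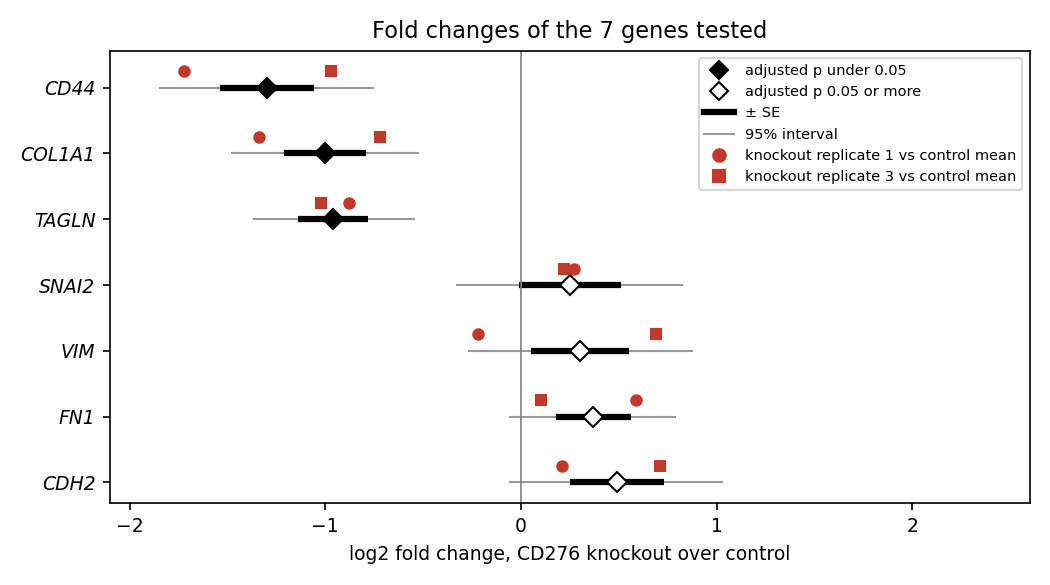
Log2 fold changes of the 7 genes tested, with SE (thick bar), 95% interval (thin line) and each knockout library against the mean of the controls (red). CD44, COL1A1 and TAGLN lie left of 0 in both knockouts, and the knockouts fall on opposite sides of 0 for VIM.

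The knockout libraries differed from each other in how they deviated. Relative to the mean of the controls, on the log2 scale with a prior count of 2, CD44 was at -1.72 in knockout replicate 1 and -0.97 in knockout replicate 3, and COL1A1 at -1.34 and -0.72 in that order. TAGLN was at -0.88 and -1.02 and SNAI2 at 0.27 and 0.22. VIM was at -0.22 and 0.69, CDH2 at 0.21 and 0.71, and FN1 at 0.59 and 0.10. Replicate 3 was thus the higher of the knockouts for CD44, COL1A1, VIM and CDH2 and the lower for TAGLN, SNAI2 and FN1.

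**Figure D5:**
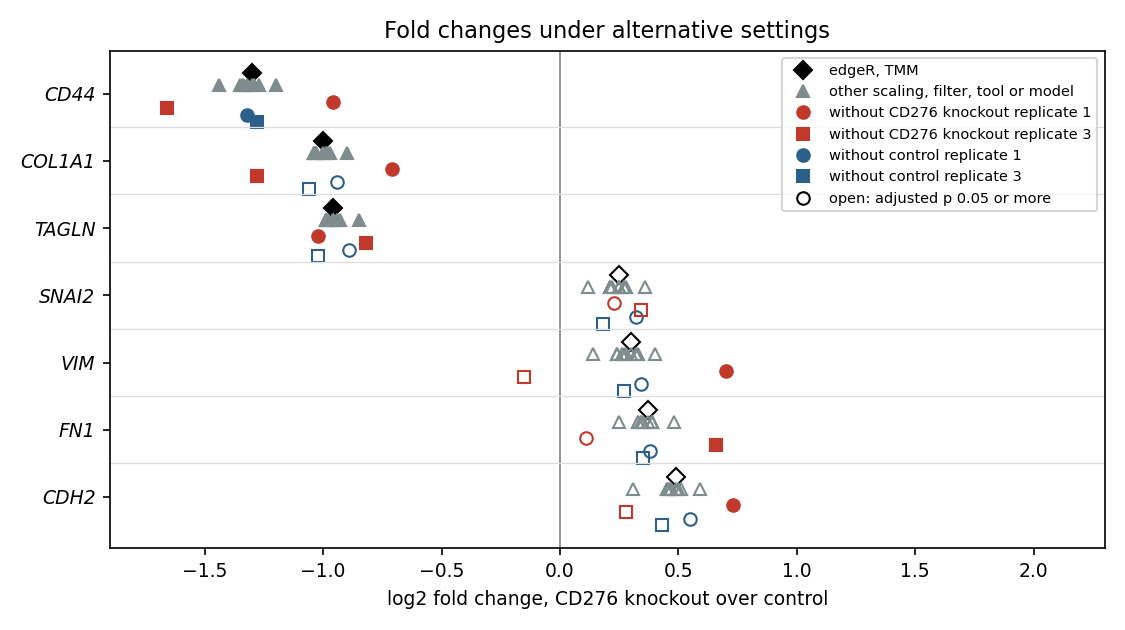
Log2 fold changes of the 7 genes tested under edgeR with TMM scaling (black), other scalings, filters, tools and models (grey), and with 1 library left out (red and blue), filled where the adjusted p was under 0.05. CD44 is filled throughout, COL1A1 and TAGLN are open where a control was left out, and VIM crosses 0 without knockout replicate 3. With 1 library left out, p-values do not cover the spread within the group that holds 1 library.

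For each member that fell, the 3 genes with the most similar pattern over the 4 libraries were found by the Euclidean distance of centred log2 CPM among 11644 other genes with a mean of at least 5 CPM. They were GAD1, OXTR and LIN7B for CD44, with distances from 0.0428 to 0.0992, PET100, APOE and CIR1 for COL1A1, with distances from 0.0492 to 0.109, and CWF19L2, ZNF266 and GAS8 for TAGLN, with distances from 0.0519 to 0.0569. GAD1, the closest to CD44, was at 4.49 and 7.46 CPM in the knockouts and 14.9 and 14.7 CPM in the controls. The distances rest on 4 libraries that share their depth and scaling.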

How the data were processed

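Poly(A)-selected TruSeq libraries were sequenced as paired ends, per the labels' protocols. The values are raw gene-level counts, deposited as 1 table. The submitters' processing notes name GRCh38, STAR 2.5.2b, Trimmomatic 0.36 and featureCounts (Subread 1.5.2). For strand setting, multi-mapping and annotation release, nothing is given in the sources used here.

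Of 57500 rows, 486 without a name (0.0191% to 0.0290% of a library's counts) were left out. Genes passing filterByExpr were TMM-scaled and tested on group with edgeR 4.0.16 in R 4.3.3 (glmQLFit, robust=TRUE, 2 residual degrees of freedom), with Benjamini-Hochberg adjustment over 18043 genes. The SE is the log2 fold change over the square root of F. The 95% intervals use it with the test's total degrees of freedom. Hardly expressed means under 1 CPM in both groups or failing the filter.

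Positions, exon lengths and overlaps came from GENCODE 29 (GRCh38) and start regions from RefSeq (GRCh38.p14; 6 of 9 members matched). The 9 genes, the 12 related and marker lists (196 genes, all matched, 5 by an older symbol), tests and naming rule were chosen with earlier results of these data known. The rule names the 9 members, CD276, up to 3 called genes with the smallest p and at least 1 CPM per list, each list's gene with the highest mean CPM, and the 3 nearest patterns. Some luminal markers are not reported here. No set test was run. The fit was checked on simulated counts, with 1 dispersion for all genes. It recovered 7.69% of 1.5-fold, 54.5% of 2-fold and 92.1% of 4-fold changes, so small changes mostly went uncalled in the simulation. Only 200 genes were changed there, while 4111 of 18043 were called in the data. More calls make the adjusted threshold less strict, so these shares need not hold for the data.

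Alternatives were RLE, upper quartile or no scaling, no filter, at least 50 counts, DESeq2 1.42.0, limma voom (limma 3.58.1), robust=FALSE, a replicate block, protein-coding genes only, GC and length offsets, each library left out, and an adjusted p under 0.01.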

Additional observations from a re-analysis of the deposited data

How the results depend on the processing

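The 3 members that fell numbered 1 to 3 with each library left out (CD44 alone without either control) and 1 at an adjusted p under 0.01. With 1 library left out, the spread within the group that holds 1 library is not measured, so calls of those fits are not read as support. Over all genes, 1780 were higher and 2331 lower. Leaving out 1 library gave 45 to 4795 higher and 267 to 4471 lower, and an adjusted p under 0.01 gave 361 and 675. Of 128 alternative values for the 7 tested members and CD276, 117 kept direction and side of the threshold, 7 lost the call, 3 gained one and 1 reversed. The calls gained all came from fits without 1 of the knockout libraries. The reversed value was VIM, at -0.15 without knockout replicate 3, and VIM was at 0.70 with knockout replicate 1 left out. The cause was not tested. Scaling by library totals shifted the median of all genes by 0.11 on the log2 scale, gave 2340 higher and 1781 lower, and kept the direction of all 7 tested members. In the lists it gave 1 transcription factor called higher, against 0, 2 matrix glycoproteins, against 1, 6 epithelial genes, against 4, 7 matrix-modifying genes, against 5, and 3 actin-binding genes, against 2. It called 1 cadherin-list gene lower, against 2. Upper quartile scaling called 3 epithelial genes higher. The GC and length offsets lowered VIM to 0.14, SNAI2 to 0.12, CDH2 to 0.31 and FN1 to 0.25. With the replicate number as a block, 2062 genes were higher and 2781 lower, and the members called stayed at 0 higher and 3 lower. Over the genes tested, deviations of the same-numbered libraries from their group means were not correlated (r = -0.015). Whether same-numbered libraries shared a culture or a batch was not tested. With 0.5 or 2 CPM in place of 1, the hardly expressed members were again ZEB1 and TGFBI. With 2 libraries a group, the 95% intervals of the uncalled members reached 1.85-fold higher for VIM, 2.05-fold for CDH2, 1.73-fold for FN1 and 1.78-fold for SNAI2.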
